A study of Etheostoma caeruleum with 31 samples.

Results

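A set of 161 array probes was examined that had their highest mean level of the year in winter, in the testes of male rainbow darters caught in January. Rainbow darters (Etheostoma caeruleum) are small freshwater fish that breed once a year in spring. Total testis RNA of 31 adult males from a clean area of the Grand River, Ontario, was measured on 1-colour Agilent oligonucleotide arrays, with 1 fish per array as the labels give it. Untreated wild fish were taken in 5 stages named in the labels: spawning (May 2011, n = 7), post-spawning (August 2011, n = 6), recrudescence (October 2011, n = 5), developing (January 2012, n = 6) and pre-spawning (March 2012, n = 7). Each stage comes from 1 month, so that season and reproductive state cannot be told apart.

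The members were chosen from the measured values themselves. Each spot's intensity was divided by the 75th percentile of its array and put on the log2 scale, and probes with several spots were given the mean of these. A probe had to be well above background, by the scanner software's own criterion, on at least 5 arrays. A member is a probe whose mean in the developing stage was at least 1 log2 unit (2-fold) above the highest of the other 4 stage means, and this difference is called the margin below. The rule took 161 of the 8621 tested probes of the main design (1.87%), of 9041 probes on the array in all. For comparison, the same rule took 1246 probes with post-spawning as the top stage, 23 with recrudescence, 8 with spawning and 7 with pre-spawning, and 31 probes were lower in developing than in every other stage by the same distance. The stage levels and margins are therefore a description, and no test is given for them.

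In fishes that breed in 1 season, the testis shrinks after spawning, regrows in autumn as spermatogonia multiply, and carries its germ cells through meiosis and sperm formation in cysts lined by Sertoli cells. Leydig cells between the cysts make the androgens that drive breeding. A whole testis holds all of these cells in shares that shift over the year, so that in these bulk samples a larger share of a cell type and more RNA per cell cannot be told apart. The files used here name the probes by identifiers and pair them with neither genes nor sequences. Several members may read the same transcript, so that all counts below are counts of probes. The members are thus described by their course over the year and over the fish, and neither the tissue nor any cell type was checked against marker genes.

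The members were mostly faint, and on 5 of the 6 January arrays more of them were readable than on any other array. Their median level over the 25 arrays of the other stages was -6.35 on the log2 scale relative to the 75th percentile, against -2.28 over all tested probes, and 89.3% of tested probes were not below it. Over the developing arrays the members' median was -2.84, with 41.5% of tested probes below it. Between 56 and 135 of the 161 members were well above background on each array of the other stages, against 93 on developing replicate 1, 152 on replicate 3 and 157 to 160 on the other developing arrays. Fully 126 members were readable on at least 5 arrays outside January and 45 on all 25, while 35 passed the filter only with the help of the developing arrays and 2 were readable on no other array.

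**Figure D1:**
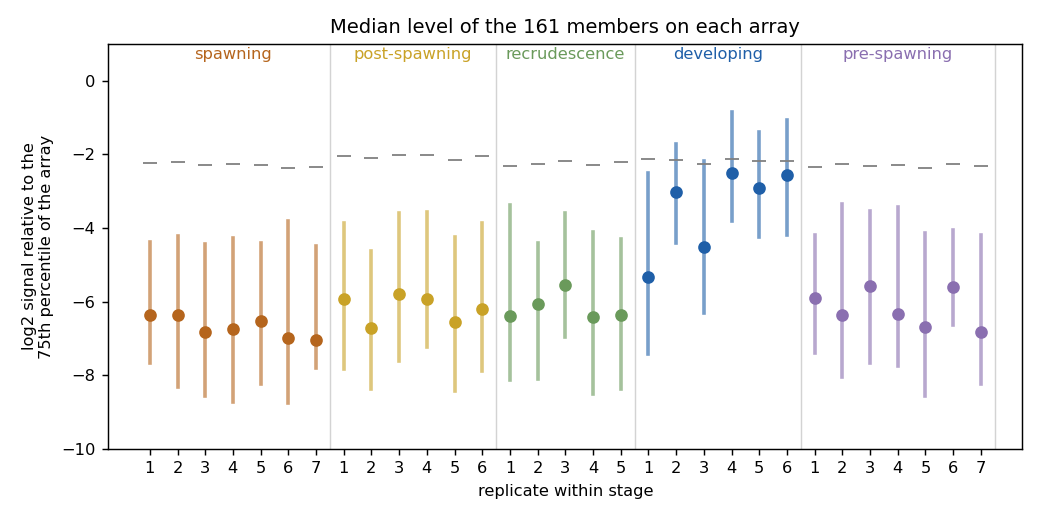
Median level of the 161 members on each array, on the same log2 scale (points), with the 25th to 75th percentile of the members (bars) and the median of all tested probes (grey dashes). Developing replicates 2, 4, 5 and 6 lie between -3.02 and -2.52, and developing replicates 1 and 3 at -5.34 and -4.52.

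The median margin was 1.69 (3.24-fold), with the middle of the set between 1.24 and 2.30 and the largest at 4.50 (22.6-fold). A margin of at least 2 was reached by 59 members, of at least 3 by 23 and of at least 4 by 3. The members nearest to the threshold had margins of 1.00 and 1.01, and the closest probes outside it had 0.998 and 0.987. One member passed only with a spot that the scanner software had flagged as an outlier, and its margin without that spot was 0.29. In 53 members at least 1 of the other stages had no array well above background, which leaves only a bound on the level there. With such stages raised to the lowest readable signal of each array, 144 members kept a margin of at least 1, and the median became 2.62-fold. In the 108 members with no such stage the median was 2.82-fold. A stage with at least 1 readable array kept all its values as measured, readable or not. These folds are therefore not lower bounds for every member, and the 108 were not readable on all arrays of the other stages.

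The second-highest stage differed among members. It was post-spawning for 58 of them (36.0%), pre-spawning for 48 (29.8%), recrudescence for 29 and spawning for 26. Over all tested probes, the highest of these 4 means fell in post-spawning for 53.6% and in pre-spawning for 16.0%.

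The winter level was not shared by all the January fish. The members' median level was -3.02, -2.52, -2.90 and -2.55 in developing replicates 2, 4, 5 and 6, but -5.34 in replicate 1 and -4.52 in replicate 3. The medians of the other 25 arrays lay between -7.05 (spawning replicate 7) and -5.54 (recrudescence replicate 3). All developing arrays were thus above every other array in this median, replicate 1 by the least. Measured against each member's own second-highest stage mean, 154 members were at least 1 unit higher in replicate 4, 143 in replicate 5, 139 in replicate 2 and 137 in replicate 6, whereas 78 were in replicate 3 and 48 in replicate 1. The median margin in replicate 1 was -0.08, and 79 of the 161 members there were above their second-highest stage mean.

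The spread among the January fish was accordingly wide. The standard deviation of a member had a median of 1.55 in developing, against 0.65 in spawning, 0.63 in post-spawning, 0.61 in recrudescence and 0.84 in pre-spawning. It was largest in developing for 100 members (62.1%), and for 25.7% of all tested probes. The rule used the January mean and not the spread around it, but a mean raised by some fish only brings a spread with it.

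Members fell into groups by which January fish stood above all 25 arrays of the other stages. All 6 fish did so for 29 members (18.0%), and for 1.32% of all tested probes. Exactly fish 2, 4, 5 and 6 did so for 70 members. In the other 62 the pattern was mixed, and it included 12 members with every January fish but replicate 1 above. For the patterns other than all 6 fish, the share of all tested probes was not counted. These groups were formed from the values, and they are a description.

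**Figure D2:**
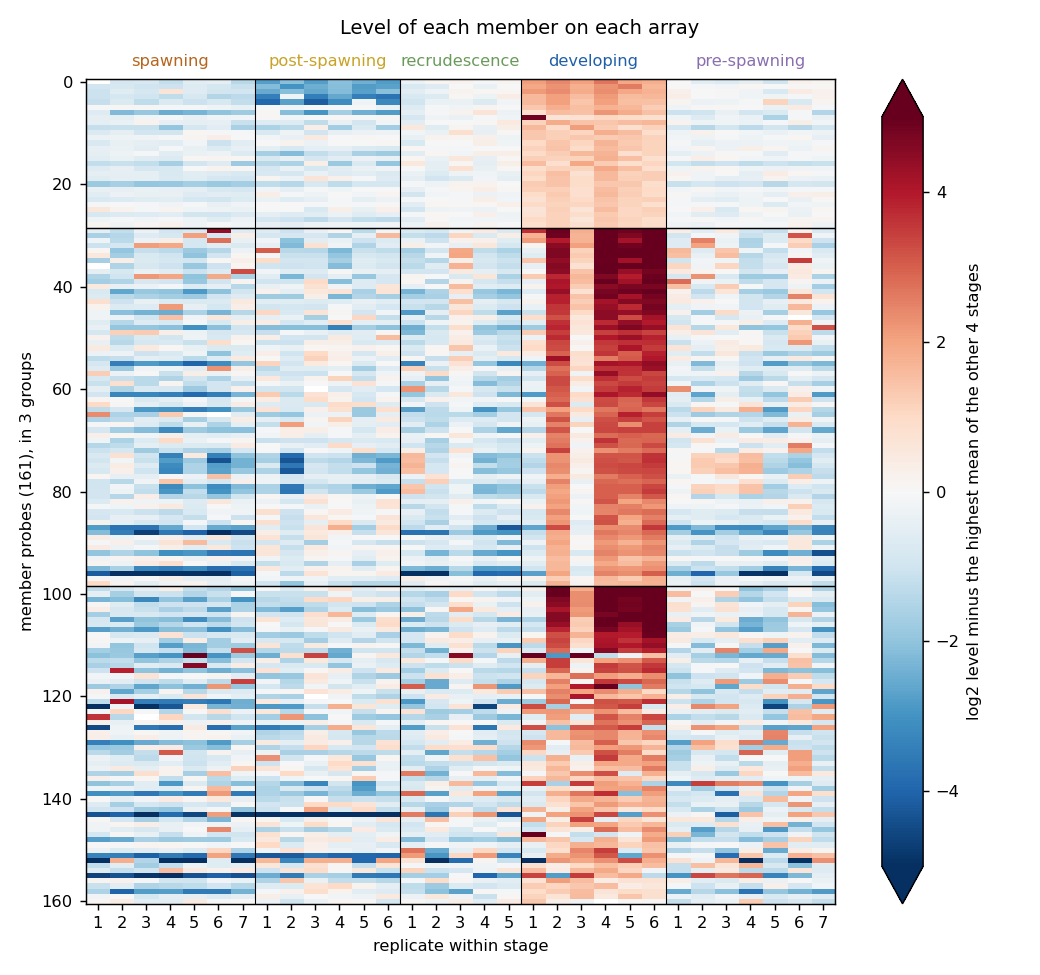
Level of each of the 161 members (rows) on each of the 31 arrays (columns), as log2 level minus the member's highest mean among the other 4 stages, with colours limited to 5 units either way. Lines separate the 29 members with all 6 developing fish above all other arrays (top), the 70 with exactly fish 2, 4, 5 and 6 above (middle) and the other 62 (bottom); in the middle block developing columns 1 and 3 are pale.

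A choice by all fish being above favours even margins. The 29 members raised in all 6 January fish had small and mostly even ones. Their median margin was 1.25 (2.38-fold), the largest was 2.16, and the median standard deviation among the January fish was 0.27. In 1 of them it was 1.65, with a margin of 4.87 in fish 1 and of 0.66 to 1.04 in the other fish. Per fish, their median lay between 1.08 in replicate 3 and 1.60 in replicate 4, with 1.15 in replicate 1. Most of them were bright enough to be read all year, since 21 of the 29 were well above background on all 31 arrays. Their second-highest stage was most often recrudescence (15 members), followed by pre-spawning (8), post-spawning (5) and spawning (1).

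The 70 members with exactly 4 fish above had larger margins in these fish and far lower ones, by median, in fish 1 and 3. Their median margin per fish was 3.48 (11.2-fold) in replicate 6, 3.29 (9.81-fold) in replicate 4, 3.28 (9.69-fold) in replicate 5 and 2.97 (7.82-fold) in replicate 2. It was 0.33 in replicate 3, where 52 of the 70 were above the second-highest stage mean and 16 by at least 1. It was -0.39 in replicate 1, where 20 were above and 8 by at least 1. A place in this group depends on the highest single array of the other stages. Probe GT_EA516_un_s_sp_39737, described below, belongs to it with margins of 3.67 in fish 1 and 1.81 in fish 3. Only 12 of the 70 were well above background on all arrays, and post-spawning (27) and pre-spawning (25) were their most frequent second-highest stages.

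**Figure D3:**
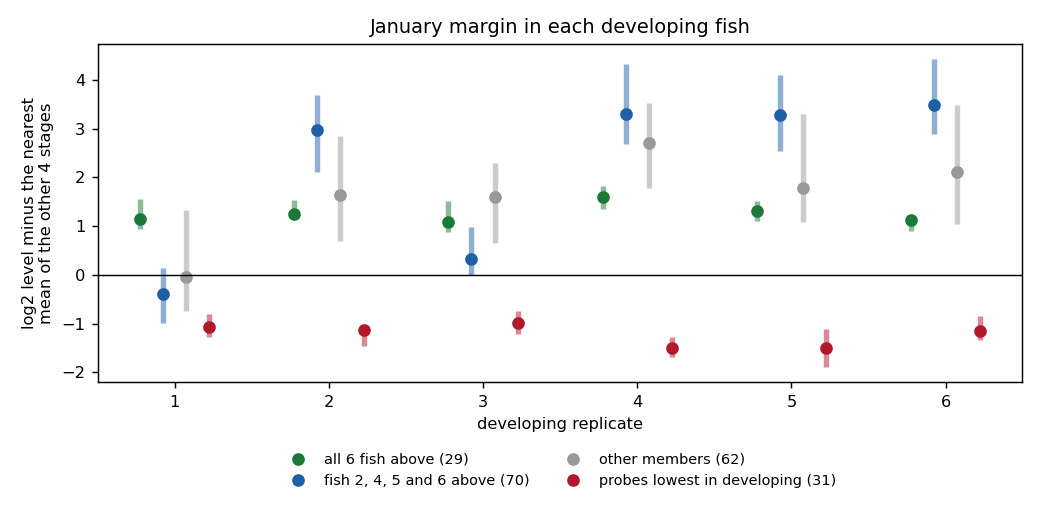
Margin in each developing fish, as log2 level minus the nearest mean of the other 4 stages, with medians (points) and 25th to 75th percentiles (bars) for the 3 groups of members and for the 31 probes lowest in developing. The 70 members have medians near 3 in fish 2, 4, 5 and 6 and of -0.39 and 0.33 in fish 1 and 3, while the median of the 31 lowest probes lies below 0 in every fish.

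The probes that were lowest in January were low in fish 1 and 3 too, though by less than in the other fish. Of these 31 probes, 30 or 31 lay below the lowest mean of the other stages in every developing fish, 30 in fish 1 and 31 in fish 3. The median distance was -1.06 in fish 1 and -0.99 in fish 3, against -1.51 to -1.14 in the other fish. At least 1 unit below were 16 probes in fish 1 and 15 in fish 3. In fish 2, 4, 5 and 6 these were 24, 24, 27 and 20 probes. All 6 January arrays lay below all 25 others for 16 of these probes (51.6%), and the share over all tested probes was not counted. The difference between this set and the members was not tested.

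Of the measures of the arrays, brightness was highest and the spike-in signal lowest on developing array 3, while array 1 was within or near the range of the others. The 75th percentile of the intensity was 3991 on developing array 1 and 5093 on array 3, against 3212 to 4288 on the other developing arrays. The share of probes well above background was 87.1% and 95.2%, against 86.6% to 90.7%. The mean log2 signal of the 6 Agilent spike-in probes that were readable on every array was 11.9 and 11.4, against 11.6 to 12.1. The arrays lay on 4 slides. Fish 1 was the only developing fish on slide 2, so that for January this fish and its slide cannot be told apart, while fish 3 shared slide 1 with fish 6. Within slides, the median margin of the members was 1.37 on slide 1, -0.092 on slide 2, 2.06 on slide 3 and 1.96 on slide 4, which holds no recrudescence array. The part of brightness or slide in the split among the fish was not tested.

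The members were also chosen anew without each January fish and then read in the fish left out, against the same means of the other stages. That fish entered neither the January mean nor the choice, except through the filter on readable probes. Without fish 4, 138 probes were chosen and 128 of them (92.8%) were at least 1 unit above the other stages in that fish, against 3.91% of all tested probes. The corresponding share was 135 of 161 (83.9%) in fish 5 against 2.78%, 122 of 156 (78.2%) in fish 6 against 2.77%, and 127 of 166 (76.5%) in fish 2 against 2.70%. It was lower in fish 3, with 62 of 173 (35.8%) against 2.31%, and in fish 1, with 39 of 183 (21.3%) against 2.17%. Since the means of the other stages also entered the choice, the share of all probes is not the value to be had without a January difference, and these shares are compared among the fish only.

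Leaving out whole slides, and reading the chosen probes between the stages within the left-out slide, gave 73.8% of 145 chosen probes on slide 3, against 2.96% of all tested probes, and 124 of 165 (75.2%) on slide 4, against 2.82%. It gave 94 of 165 (57.0%) on slide 1 against 1.84%, and 35 of 182 (19.2%) on slide 2 against 1.94%. The lowest share was again that of the slide which holds fish 1 alone.

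Of the original 161 members, 123 kept a margin of at least 1 whichever January fish was left out. The margin of the other 38 came down below 1 without at least 1 of the fish, and in 1 of them it came down to 0 or less. The highest array of the year was a January array for 153 members, most often that of fish 6 (58 members) or fish 4 (46), and an array of another month for 8.

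Probe GT_EA516_un_s_sp_39737 had the largest margin. Its level in January was -0.87, 0.38, -2.73, 1.31, 0.31 and 1.37 in fish 1 to 6. It ran from -5.78 to -0.16 (median -5.20, n = 7) in spawning, from -5.90 to -4.48 (median -5.07, n = 6) in post-spawning and from -5.70 to -4.04 (median -5.10, n = 7) in pre-spawning. In recrudescence it was -5.26, -5.43, -4.75, -4.12 and -5.27. The January fish were above all fish of other months but 1, spawning replicate 6 at -0.16, which lay above January fish 1 and 3. January fish 3, at -2.73, was the nearest to the remaining fish, the highest of which was pre-spawning replicate 3 at -4.04. The January mean was -0.04 ± 1.55 (SD, n = 6) and the next, in spawning, was -4.54 ± 1.96 (n = 7).

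Probe GT_EA516_un_s_xh_7297 showed the split among the fish. It was at 0.09, 0.48, 0.02 and 0.77 in January fish 2, 4, 5 and 6, at -3.73 in fish 3 and at -5.34 in fish 1. Its other levels ran from -7.60 to -5.29 in spawning, from -6.28 to -4.75 in post-spawning, from -6.17 to -5.51 in recrudescence and from -7.59 to -5.34 in pre-spawning. Fish 1 thus lay within the range of other months, and the other January fish lay above all of them. The January mean was -1.29 ± 2.58 (SD, n = 6), and the next was -5.58 ± 0.56 (n = 6) in post-spawning.

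**Figure D4:**
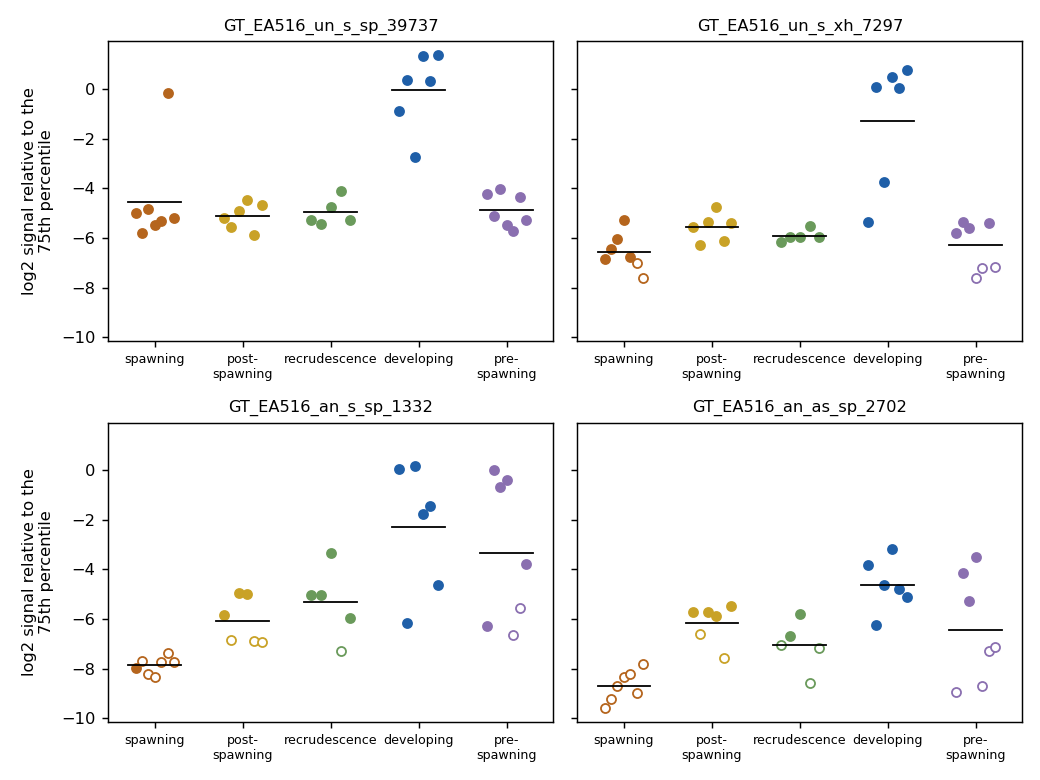
Log2 level (relative to each array's 75th percentile) of 4 members on every array, with filled points for arrays on which the probe was well above background, open points for the others, and lines for stage means. The upper pair has the largest margins among members readable on all developing arrays; the lower pair has the largest fitted differences among the 12 members called lower in spawning than in pre-spawning.

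The stages that the rule did not set against each other were compared next, to ask what the members did in the rest of the year. Values were fitted with limma over all 8638 tested probes and all arrays, and p-values were adjusted over all of these probes (Benjamini-Hochberg) and read at 0.05. The rule saw these stages only through the highest of their means. Most members passed no test outside January. Of the 161, 61 (37.9%) were called in at least 1 of 4 comparisons, against 84.9% of all tested probes. Of the 126 members readable on at least 5 arrays outside January, 58 (46.0%) were called, and of the other 35, 3 were. The members were fainter and had a standard deviation within these stages of 0.61 to 0.84 in the median, against 0.26 to 0.28 for all tested probes. The estimate of the spread, shared by all stages, also took in the January arrays. There the members' median standard deviation was 1.55, against 0.29 for all tested probes. Counts that change with only the other 4 stages fitted are given among the alternatives below. The part of each of these in the lower share was not tested.

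From spawning to post-spawning, 29 members (18.0%) were higher and 15 (9.32%) were lower, against 46.5% and 28.1% of all tested probes. The members' median difference was 0.06, and that of all tested probes was 0.30. Of the 29, 6 were readable on no spawning array, and 5 of these were at least 1.02-fold to 8.40-fold higher while the last allows no fold. In these bounds and those below, values of the higher stage were taken as measured, readable or not. The log2 differences of the other 23 ran from 0.26 to 4.01 with a median of 1.78. Of the 15, 2 were readable on no post-spawning array and were at least 1.05-fold and 1.22-fold lower, and the other 13 differed by -4.24 to -0.24 with a median of -1.19. For 24 of the 29, post-spawning was then the second-highest stage of the year. The call itself leaves out spawning as that stage, and the corresponding share among all probes called higher was not counted. Without slide 4 the 29 became 14.

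From post-spawning to recrudescence, 24 members (14.9%) were higher and 13 (8.07%) lower, against 23.4% and 47.4% of all tested probes. The members' median difference was -0.02, and that of all tested probes was -0.35. Of the 24, 2 were readable on no post-spawning array and were at least 1.81-fold and 1.93-fold higher, and the other 22 differed by 0.28 to 7.42. Of the 13, 3 were readable on no recrudescence array, with 1 at least 1.22-fold lower and no fold for the others, and the other 10 differed by -4.13 to -0.56 with a median of -1.86. The comparison shares the post-spawning arrays with the one before it. Without slide 4 the 13 became 6, and without developing replicate 1, through the shared estimate of the spread, they became 20.

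Recrudescence in October and pre-spawning in March flank the January stage, and few members passed the test between them. One member (0.621%) was higher in pre-spawning and 5 (3.11%) were lower, against 13.0% and 16.7% of all tested probes. The 5 differed by -1.30 to -1.02 and the 1 by 0.37, and the median over all members was 0.12 against -0.01 for all tested probes. The 1 became 0 without recrudescence replicate 1, 2 or 5, pre-spawning replicate 3 or 6, or slide 1 or 2, and it became 2 without recrudescence replicate 3, pre-spawning replicate 7 or slide 4. The 5 became 3 without recrudescence replicate 4 and 2 without slide 1.

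Between the March 2012 and the May 2011 fish, the members that passed the test were lower in May. The May fish were caught before the March fish, in the spring of the year before. In spawning, 12 members (7.45%) were lower than in pre-spawning and 0 were higher, against 4.39% and 5.07% of all tested probes. At an unadjusted p under 0.05 in limma the numbers were 34 lower (21.1%) and 4 higher (2.48%), against 11.5% and 13.5% of all tested probes. Without pre-spawning replicate 4 the 0 higher became 2. The median difference over the members was -0.33, against 0.01 over all tested probes. One of the 12 was readable on no spawning array and is described below, and the other 11 were between -4.52 and -0.40, with a median of -0.78. Their number was 9 to 15 without single arrays, 3 without slide 2, 5 without slide 4 and 1 with scaling to the spike-in probes.

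Probe GT_EA516_an_s_sp_1332 had the largest fitted difference among the 12. In pre-spawning fish its level was -6.28, 0.02, -0.68, -0.41, -6.66, -5.57 and -3.78, and in spawning fish it ran from -8.34 to -7.38 (median -7.71, n = 7), with 1 of 7 arrays well above background. The measured ranges did not overlap. March fish 5 and 6 were not well above background, however, and the lowest readable signal of spawning replicate 7 was -5.74. That is above the values of March fish 1 and 5, so that non-overlap is not settled. March fish 2, 3 and 4 were near the January levels of fish 1 and 3 (0.04 and 0.17) and the others far below. The fitted log2 difference of the probe was -4.52 (SE 1.00, adjusted p 0.0061 in limma, 7 against 7 arrays). With spawning values raised to the lowest readable signal of their array and March values as measured, pre-spawning was 12.6-fold higher. The call did not pass without slide 2 (adjusted p 0.080) or slide 4 (0.056). In January it was low in fish 2 (-6.14) and fish 6 (-4.64), both among the fish in which most members were high. Its January mean of -2.30 ± 2.56 (SD, n = 6) was 1.03 above that of pre-spawning.

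Probe GT_EA516_an_as_sp_2702 was well above background on no spawning array and on 3 of 7 pre-spawning arrays. Its level was -8.92, -4.16, -5.27, -3.51, -8.69, -7.28 and -7.12 in pre-spawning fish and -9.58 to -7.81 in spawning fish, so that the ranges overlapped. The difference was between means of -6.42 and -8.68 (adjusted p 0.029 in limma, 7 against 7 arrays). With spawning values raised to the lowest readable signal and March values as measured, readable or not, it was 1.49-fold. It did not pass without spawning replicate 1 or 6, pre-spawning replicate 2, 3 or 4, or slide 2, 3 or 4. Adjusted p in limma lay between 0.051 and 0.16 in these fits. With scaling to the spike-in probes it did not pass either. Pre-spawning fish 2, 3 and 4 were the high ones in both of these probes.

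**Figure D5:**
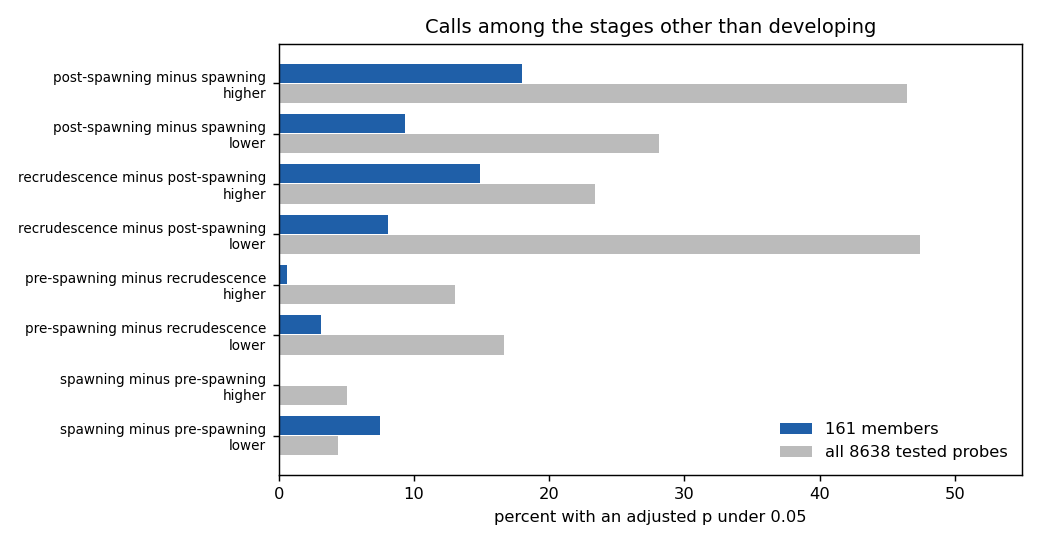
Percent of the 161 members (blue) and of all 8638 tested probes (grey) with an adjusted p under 0.05 in limma, by comparison and direction. The members' share is below that of all probes in each comparison and direction except lower in spawning than in pre-spawning, with 7.45% against 4.39%.

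Some members also read high in single fish of other months. On pre-spawning replicate 6, 25 members (15.5%) were at least 2 units above the median of the other arrays of the stage, against 2.56% of all tested probes. On recrudescence replicate 3 this held for 22 members (13.7%), against 0.835%. No other array outside January had a larger share of members, but a higher share than among all tested probes was not particular to these arrays. The remaining arrays outside January had 1.24% to 9.32% of members and 0.255% to 1.44% of all tested probes. The members' share was the higher on each of them. Members were also fainter and varied more within these stages, as given above, and the share among probes of like level was not counted. Of the 25 and the 22, 3 were raised on both arrays, which is 13.6% of the recrudescence set and 12.0% of the pre-spawning set, near the shares of all members. On pre-spawning replicate 6 the raised members lay at a median of -0.12 from their January mean, and 8 of the 25 reached it. On recrudescence replicate 3 the median was -1.67, and 2 of the 22 reached it. Values were taken as measured, and how many raised members were readable was not counted. Of all members, 81 (50.3%) were well above background on pre-spawning replicate 6, against 125 (77.6%) on recrudescence replicate 3. A further member read -5.62 on pre-spawning replicate 6, above its January mean of -6.65. It was well above background on no pre-spawning array, so that reaching the January level is not settled there. The group with exactly January fish 2, 4, 5 and 6 above all other arrays held 13 of the 22 (59.1%) and 9 of the 25 (36.0%). It held 43.5% of all members.

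Apart from their course, some features of the array design were more frequent among the members than among all tested probes. A single spot represented 119 members (73.9%), against 30.8% of all tested probes, and the share among probes of like level was not counted. In the 41 members with 2 spots, the spots differed by a median of 0.11 log2 units on the developing arrays and 0.13 on the others. The 204 spots of the members were spread over 127 of 192 rows and 76 of 82 columns of the array. The probe names carry fields that the sources used here do not explain. The field un stood in 78 member names (48.4%), against 27.9% of all tested probes and 42.5% of the 1924 tested probes of like level outside January. The field xh stood in 76 (47.2%), against 32.9% and 22.8%. The field as stood in 61 (37.9%), against 30.8% and 36.8%. For un and as, the members were thus nearer to the probes of like level than to all tested probes.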

How the data were processed

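Agilent Feature Extraction 10.7.1.1 read the scans, per the file headers. From its output, as deposited, the processed intensity of each spot was used, with the local background taken off and with no scaling across arrays. The output also holds the median signal and the background of each spot, which the normexp alternative used. The authors' deposited value table is on a log2 scale, and the sources used here do not say how it was normalised. It served as an alternative.

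The members and lists were chosen with earlier results of these data known. The rule was applied with all 15208 non-control spots. Values and tests left out spots with an outlier flag (426 over all arrays), so that 82 probe values had no usable spot and were dropped from the fit. No non-control spot was saturated. Stage means of 8638 probes were fitted in limma 3.58.1 (lmFit, eBayes; R 4.3.3) on all 31 arrays, and the fit was tested on simulated data. The labels call the fish of a stage biological replicates, and the number of arrays limits the precision. Printed by identifier were the members with the 2 largest margins among those readable on all developing arrays, and the 2 with the largest differences among those lower in spawning than in pre-spawning. No gene or marker list could be applied, since the files used here give no probe a gene name. Alternatives were other scalings, background correction, filters, blocks and left-out arrays and slides.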

Additional observations from a re-analysis of the deposited data

Results flagged for a closer look

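The samples of each of 5 stages were examined for 5 items, the members' median level and the 4 probes given by identifier, 25 groups in all. Chance alone sets about 1 in 20 such groups apart by this criterion. In 1 group an array stood apart. Probe GT_EA516_un_s_sp_39737 was at -0.16 in spawning replicate 6, which is 4.69 log2 units above the next spawning fish, while the other 6 ran from -5.78 to -4.85. That value lies within the January range of this probe.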

How the results depend on the processing

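These counts rest on 31 arrays and mostly on faint probes, and depth has no meaning for array intensities. The cause of each shift was not tested. The 161 members became 380 with a required margin of 0.5, 96 with 1.5, 106 with normexp background correction and 45 when well above background on all arrays was required, and 138 to 183 without single arrays. Their median margin of 1.69 was 1.52 to 2.06 without single arrays and reversed to -0.092 within slide 2. Without developing replicates 1 and 3 the rule took 210 probes, 147 of them shared with the 161, and the median margin was 2.39.

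Among the members higher in post-spawning than in spawning (29), 16 were called with scaling to the spike-in probes, 9 with the filter on all arrays and 14 without slide 4, and 22 to 36 without single arrays. For those lower (15) the numbers were 25 with quantile normalisation, 25 in the authors' value table, 4 with that filter and 12 to 17 without single arrays. For those higher in recrudescence than in post-spawning (24) they were 13 with that filter and 18 to 25 without single arrays. For those lower (13) they were 7 with quantile normalisation, 7 in the authors' table, 6 with spike-in scaling, 8 with normexp, 1 with that filter, 6 without slide 4, 26 without developing replicates 1 and 3, 25 with only the other 4 stages fitted and 9 to 20 without single arrays.

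For the 1 member higher in pre-spawning than in recrudescence, the number was 0 with spike-in scaling, the replicate block, without slide 1, without slide 2, or without recrudescence 3 and pre-spawning 6, the last chosen after seeing the data. It was 2 with median centring, normexp, the authors' table or without slide 4, and 3 with quantile normalisation, with only the other 4 stages or without developing replicates 1 and 3, with a range of 0 to 2 without single arrays. For the 5 lower it was 2 with spike-in scaling or without slide 1, 3 with normexp, the filter, slide as a fixed block or the replicate block, and 3 to 6 without single arrays. Members higher in spawning than in pre-spawning (0) became 2 without developing replicates 1 and 3, 1 with the replicate block, an intensity trend or only the other 4 stages, and 0 to 2 without single arrays. Members lower (12) became 1 with spike-in scaling, 7 with the filter, 3 without slide 2, 5 without slide 4 and 9 to 15 without single arrays.

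Replicate numbers did not pair the fish. Over 57 same-number pairs the correlations of deviations ran from -0.22 to 0.20, and 3 of 31 arrays correlated best with their own number. With the replicate block the 8 counts were 25, 16, 25, 12, 0, 3, 1 and 12, in the order given.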

Other observations

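In the set with its peak in post-spawning testis, the median margin varied less among the fish than in the January set. It ran from 1.30 to 1.95 over the 6 post-spawning fish, against -0.08 to 2.82 over the January fish. This difference was not tested. All 6 post-spawning arrays lay above all other arrays for 72.7% of the 1246 probes, and the January value was 18.0%. How many of all tested probes had all 6 post-spawning arrays above all others was not counted. These shares are therefore not compared.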
